A study of Homo sapiens with 11 samples.

Results

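The genes of the mitotic spindle and the kinetochore were followed across 5 stable lines of ARPE-19, an established line derived from human retinal pigment epithelium (RPE), the pigmented layer behind the photoreceptors. The 40 genes were taken by symbol from the 60605 features of the deposited table, and all 40 were found there. They comprise 2 markers of dividing cells, 8 regulators of mitotic entry, 6 genes of the spindle checkpoint and its target, 8 of the centromere and kinetochore, 3 of the chromosomal passenger complex, 8 kinesin motors and 5 of spindle assembly and cytokinesis. Each line carried an open reading frame for GFP, a fluorescent protein that served as the control (n = 3 libraries), for Oct4, for Sox2, for Klf4, or for all of Oct4, Sox2 and Klf4 (OSK; n = 2 libraries each), and RNA was taken after 4 days of expression. The library names of the 4 factor lines carry the letters mC and those of the GFP line do not. The labels do not say what mC stands for, which species the reading frames come from, what drives them, whether a line is 1 clone, or whether the libraries of a group are separate cultures, so p-values measure only the spread between these libraries, which may be technical.

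Dividing cells make most of the products of these genes late in the cell cycle. Before mitosis the protein complex MuvB, with B-MYB and FOXM1, raises their transcription, and in resting cells the same complex with p130 or RB family proteins holds it down. CDK1 with cyclin B then starts mitosis, motors of the kinesin family build the spindle, and the NDC80 complex of the kinetochore holds each chromosome to its microtubules. The spindle checkpoint keeps CDC20 from the anaphase-promoting complex until every chromosome is held. RPE cells of the adult eye are normally not dividing, whereas ARPE-19 cells divide in culture.

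Recovered read totals ran from 15053300 to 19791775 per library, of which the 40 genes together had 4940 to 20917. Each delivered factor was highest in the lines labelled with it. POU5F1, which encodes Oct4, lay between 252 and 276 normalised counts in the GFP libraries and at 67326 and 66823 in the Oct4 libraries. SOX2 lay between 43.7 and 82.4 with GFP and at 29106 and 29141 with Sox2, and KLF4 between 45.5 and 124 with GFP and at 24205 and 22142 with Klf4. In the OSK libraries POU5F1 was at 19020.4 and 19542, SOX2 at 17764 and 17582 and KLF4 at 24469.8 and 24202. At far lower levels, limma also called SOX2 and KLF4 higher than GFP in the Oct4 line (log2 changes of 1.63 and 1.92; SOX2 at 197 and 179, KLF4 at 248 and 241.5). In the Klf4 line SOX2 (1.39) and POU5F1 (0.45) were called higher as well, at 136 and 184 for SOX2 and 293 and 446 for POU5F1. GFP replicate 1 and OSK replicate 1 stood apart in having reads in 42956 and 32493 features, against 25853 to 26971 in the other 9. Some of the calls that change without them are given with the genes described in detail. As a check of the cell type, KRT8, KRT18, MITF, OTX2, PMEL, TYR and TYRP1 were present, whereas RPE65, TTR and DCT were at 0 to 9.93 normalised counts in all libraries. The summed RPE markers made up 2068 to 2115 RPM (reads scaled to the recovered total of the library) with GFP, 1023 to 1071 with Oct4, 1274 to 1310 with Sox2, 1466 to 1632 with Klf4 and 940.4 to 953 with OSK.

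The mitotic genes were higher than in GFP in the Sox2, Klf4 and OSK lines, and few were higher with Oct4. Their summed reads were 310, 291 and 274 RPM in the GFP libraries and 317 and 329 with Oct4. They were 653 and 640 with Sox2, 1084 and 1341 with Klf4, and 1218 and 1171 with OSK. The GFP and Oct4 sums lay close together without overlap, the Sox2 sums stood between, and the Klf4 and OSK sums were highest and overlapped each other. The mean sums were 292 ± 17.9 with GFP (SD, n = 3), 323 ± 8.90 with Oct4, 646 ± 9.18 with Sox2, 1212 ± 181 with Klf4 and 1194 ± 33.2 with OSK (SD, n = 2 each), so the ratio to GFP was 1.11, 2.22, 4.16 and 4.10. BUB3, which moved least of the 40 genes, held 1689, 1719 and 1676 of their 5028, 5131 and 4826 normalised counts in the GFP libraries. With Klf4 it held 1848 and 2115 of 19464 and 23900, so this 1 gene lowered the ratios of the sums. In bulk RNA, a larger share of dividing cells and more of these RNAs per cell cannot be told apart.

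**Figure D1:**
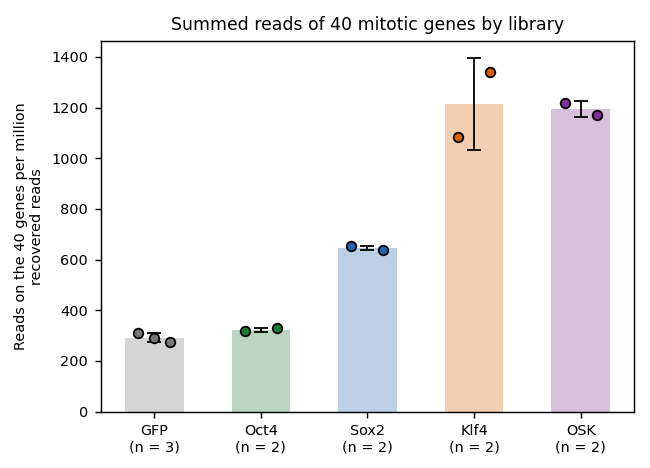
Summed reads of the 40 mitotic genes in RPM (vertical axis, from 0) by line; points are the 11 libraries, bars are group means and whiskers are 1 SD. The Oct4 libraries (317 and 329) sit just above the 3 GFP libraries, the Sox2 libraries (653 and 640) in the middle, and the Klf4 libraries (1084 and 1341) span those of OSK (1218 and 1171).

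By limma on log2(value + 1), with p-values adjusted over all 18828 genes tested and a threshold of 0.05, 38 of the 40 were higher with Klf4 than with GFP, where 17.6% of all genes tested were higher. With OSK 38 were higher (19.7% of all genes), with Sox2 33 (21.7%) and with Oct4 9 (20.1%). The Oct4 count is close to that background, and no reading about the 40 as a group rests on it. Of all genes tested 16% were lower with Klf4, 20% with OSK, 19.9% with Sox2 and 17.2% with Oct4. None of the 40 was lower in any of these comparisons by limma, edgeR or DESeq2, and at an unadjusted p under 0.05 the count of lower genes was 0 as well. The median log2 change of the 40 was 2.46 with Klf4, 2.29 with OSK, 1.46 with Sox2 and 0.29 with Oct4, while the median of all genes tested lay within 0.03 of 0 in each comparison. The 4 comparisons share the GFP libraries. PRC1 and NUSAP1 were under the filter in GFP and passed it through other lines. PRC1 was among the genes counted as higher with Klf4 and OSK, and without these 2 genes 37 of 38 were higher in each of both lines. The commonest pattern was a rise in the Sox2, Klf4 and OSK lines with no call for Oct4, found for 24 of the 40 and for 2.53% of all genes tested. A further 9 rose in all 4 lines (3.36% of all genes), 5 rose with Klf4 and OSK (2.37%), and CDC25C and NUSAP1 passed in no line (31.7%). Among the 5 group means of each gene, the Klf4 mean was highest for 29 genes and the OSK mean for 10, and the Sox2 mean lay between that of Oct4 and both of these for 35. The Klf4 means draw on replicate 2, which was above replicate 1 for 35 of the 40 genes. Limma separated OSK from Klf4 for 3 of the 40, so for most genes the order of these 2 lines was not resolved. Shares of all genes tested were not counted for these orders.

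**Figure D2:**
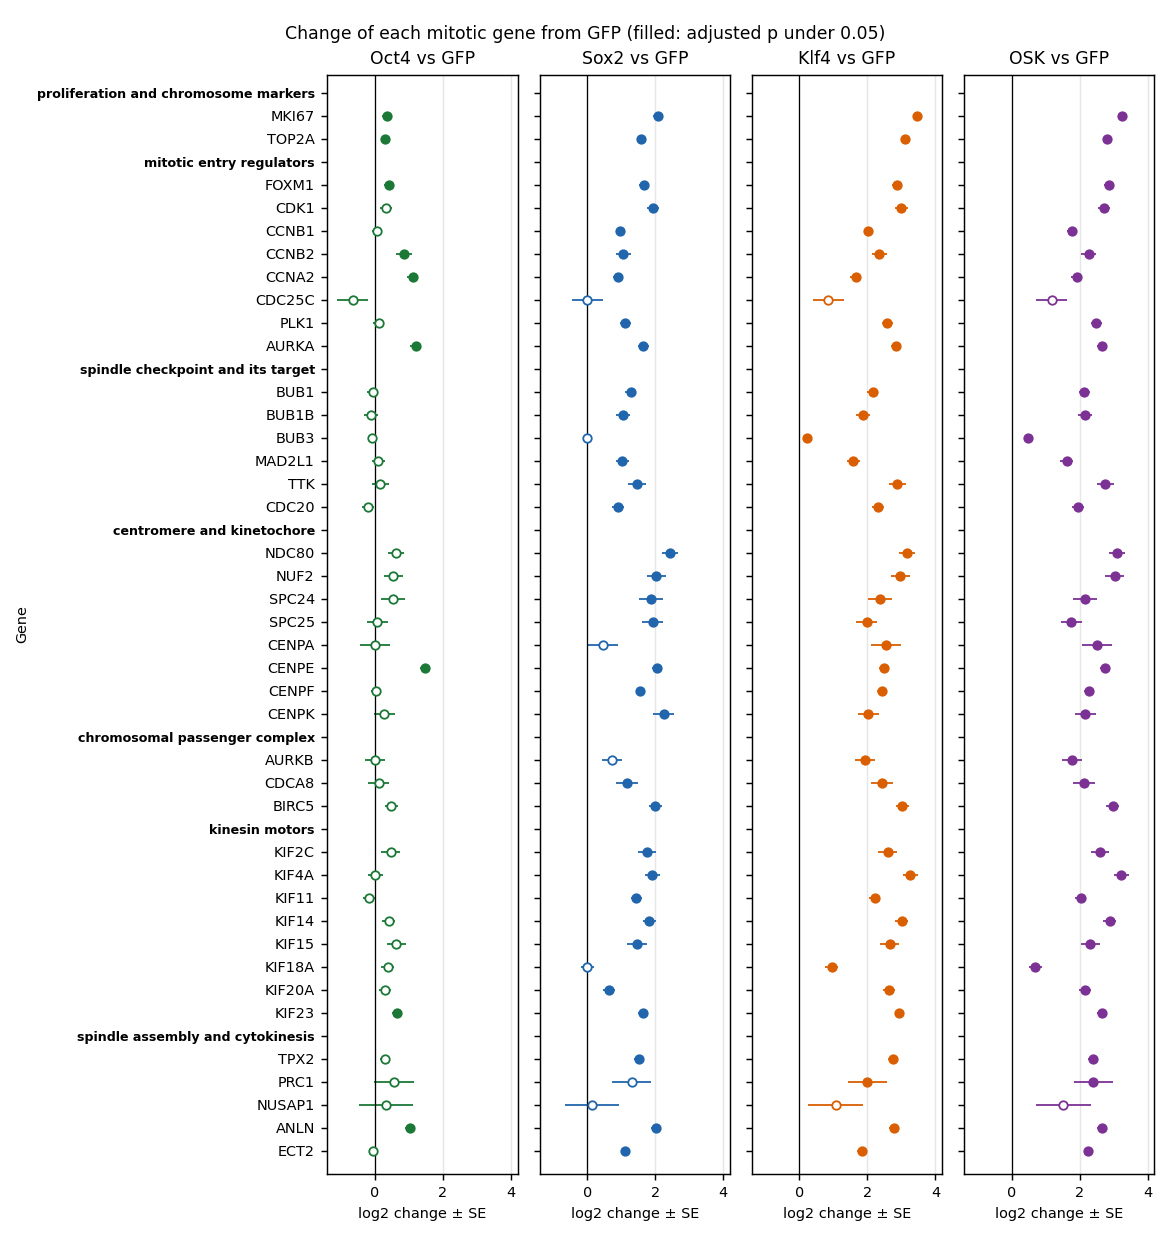
Log2 change from GFP of each of the 40 genes, grouped by role, in the Oct4, Sox2, Klf4 and OSK lines (horizontal axis, log2(value + 1) scale); points are fitted changes, bars are 1 SE and filled points have an adjusted p under 0.05. Most points of the Klf4 and OSK panels lie between 1.5 and 3.5, those of Sox2 lie lower, and those of Oct4 lie near 0 except for a few genes such as CENPE, AURKA, CCNA2 and ANLN.

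The promoters of the 40 genes were read for known letters of cell cycle promoters. RefSeq windows of GRCh38.p14, 250 bases before to 50 after the first listed start, were found for 34 of the 40 genes; BIRC5, FOXM1, BUB3, AURKA, TPX2 and TTK had none. The cell cycle genes homology region (CHR), bound by MuvB complexes, was searched as TTTGAA on both strands, and the CCAAT box, bound by NF-Y, as CCAAT on both strands. The 150 bases before the start are shown for 1 or 2 genes of 4 roles, with each CHR and each CCAAT, on either strand, in capitals. These 6 were picked after the positions had been seen: 5 that hold both letters and CENPE, which rose in all 4 lines and holds neither in this stretch.
CCNB2, chr15:59104996-59105145, plus strand: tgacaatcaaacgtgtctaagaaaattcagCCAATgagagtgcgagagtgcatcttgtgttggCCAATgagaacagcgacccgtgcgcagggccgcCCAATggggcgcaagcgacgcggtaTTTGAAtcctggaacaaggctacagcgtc
PLK1, chr16:23678739-23678888, plus strand: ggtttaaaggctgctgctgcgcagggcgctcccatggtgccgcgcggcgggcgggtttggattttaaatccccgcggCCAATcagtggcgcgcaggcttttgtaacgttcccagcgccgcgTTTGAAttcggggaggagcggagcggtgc
CDC20, chr1:43358831-43358980, plus strand: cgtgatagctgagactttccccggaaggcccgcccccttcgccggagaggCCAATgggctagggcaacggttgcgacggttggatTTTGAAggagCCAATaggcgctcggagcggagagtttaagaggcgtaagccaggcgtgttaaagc
CENPA, chr2:26785906-26786055, plus strand: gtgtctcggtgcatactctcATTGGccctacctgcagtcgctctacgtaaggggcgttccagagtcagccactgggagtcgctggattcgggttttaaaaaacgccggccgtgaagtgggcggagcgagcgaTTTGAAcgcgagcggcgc
CENPE, chr4:103198344-103198493, minus strand: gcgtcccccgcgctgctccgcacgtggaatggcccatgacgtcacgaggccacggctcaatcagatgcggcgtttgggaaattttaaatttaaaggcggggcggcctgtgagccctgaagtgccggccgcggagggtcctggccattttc
KIF23, chr15:69414199-69414348, plus strand: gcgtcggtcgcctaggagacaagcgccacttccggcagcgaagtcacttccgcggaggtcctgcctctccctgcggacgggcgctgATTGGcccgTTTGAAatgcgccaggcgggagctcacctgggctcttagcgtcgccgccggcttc
In the stretches shown, the CHR of CCNB2 follows 3 CCAAT boxes, in PLK1, CENPA and KIF23 it follows 1, and in CDC20 it lies between 2.

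TTTGAA occurred in 24 of the 34 windows (70.6%), against 9.77% of the windows of the 12054 tested genes that have one and 15.4% of all 27305 windows. CCAAT occurred in 26 (76.5%; 36.2% of the tested genes' windows), and 15 held it more than once (13.4%). A CHR, or its variant TTCGAA, together with a CCAAT stood in 20 windows (58.8%; 4.67%), and a CHR or variant lay within 60 bases of the start in 22 (64.7%; 3.35%). The variant was in 2 windows (5.88%; 1.68%), BUB1 and NDC80, and NDC80 holds TTTGAA as well. Letters of the E2F site (TTTGGCGC, TTTCCCGC or TTTCGCGC) were in 4 windows (11.8%; 4.31%) and the GC box GGGCGG in 25 (73.5%; 68.3%). Of letters known for the delivered factors, the octamer ATGCAAAT was in 0 windows (1.38% of the tested genes'), CATTGTT of the SOX family in 1 (2.94%; 1.79%) and GGGTGTGG of the KLF family in 2 (5.88%; 2.93%). All of these were searched on both strands. A match is a run of letters and no measured site, and a window without one says nothing of the factor.

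The genes with TTTGAA in the window and those without it both rose. Of the 24 with it, 23 were higher with Klf4, at a median log2 change of 2.49, and of the 10 without it 9 were, at 2.09. With Sox2 the counts were 20 of 24 (median 1.46) and 8 of 10 (median 1.12). Among genes outside the 40, 147 held TTTGAA within 60 bases of the start and a CCAAT. Of these 34.01% were higher with Klf4 and 38.8% with OSK, where 20.5% and 23.4% of the 12020 other genes with a window were. With Sox2 34.01% were higher (25.9% of the other genes) and with Oct4 20.4% (23.3%). Of the 147, 19.05% were lower with Klf4 and 16.3% with OSK (18.4% and 22.7% of the other genes). Their median log2 change was only 0.16 with Klf4, 0.145 with OSK and 0.12 with Sox2. Of the 1154 other genes with TTTGAA anywhere in the window, 22.01% were higher with Klf4, 26.6% with OSK, 27.2% with Sox2 and 21.2% with Oct4. Those shares lie close to the shares of the 12020. These values describe the letters and were not tested.

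**Figure D3:**
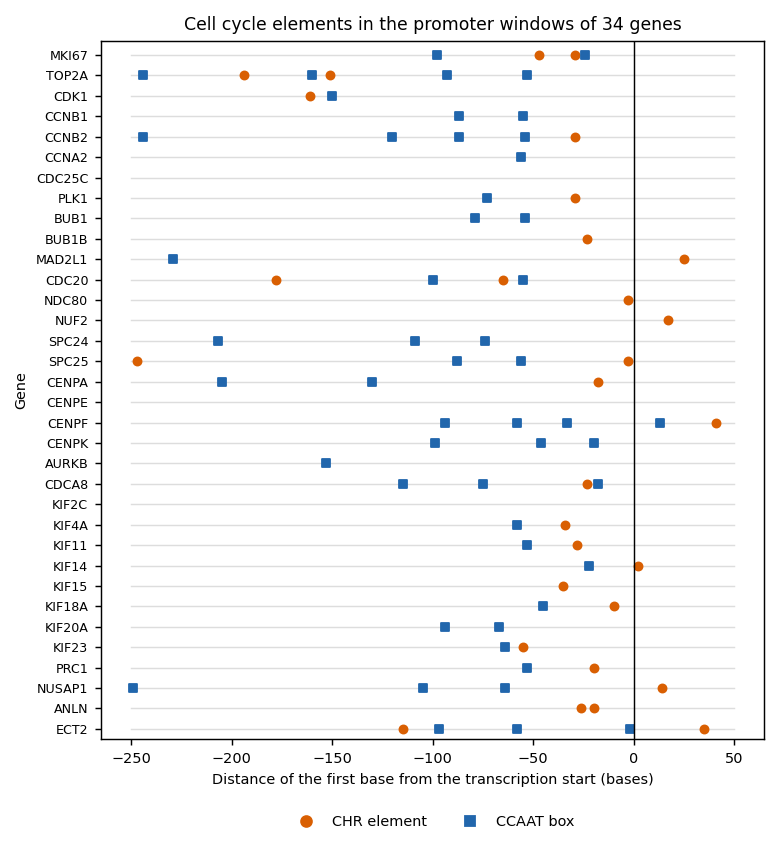
Position of the first base of each TTTGAA (CHR, circles) and CCAAT (squares), on either strand, relative to the first listed start (horizontal axis, bases) in the RefSeq windows of 34 mitotic genes, 1 line per gene. For 21 genes a TTTGAA lies within 60 bases of the start, and CDC25C, CENPE and KIF2C hold neither run of letters.

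Markers of dividing cells. MKI67, which encodes the antigen Ki-67 that coats mitotic chromosomes, had 189.7, 251 and 213 in the GFP libraries, 258 and 291 with Oct4, 878 and 945 with Sox2, 2077 and 2721 with Klf4, and 2167 and 1964 with OSK (normalised counts, as all values by library below). The 2 Klf4 and 2 OSK libraries lay far above all others, and the Sox2 libraries in turn above Oct4 and GFP. The log2 change of MKI67 from GFP was 0.34 (SE 0.12, limma adjusted p = 0.0418) with Oct4, 2.07 with Sox2, 3.45 (SE 0.12, limma adjusted p = 1.55e-11) with Klf4 and 3.25 with OSK, the largest changes of the 40 genes with Klf4 and OSK. TOP2A, the enzyme that untangles sister chromatids, had 237, 249 and 243 in the GFP libraries, 282 and 310.2 with Oct4, 769.7 and 700.4 with Sox2, 1964 and 2285 with Klf4, and 1723 and 1711 with OSK. Its order of lines was the same as that of MKI67, with no overlap between GFP and any factor line. Its log2 change was 0.28 with Oct4, 1.59 with Sox2, 3.12 (SE 0.09, limma adjusted p = 1.16e-12) with Klf4 and 2.82 with OSK.

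Of the 8 regulators of mitotic entry, 4 rose with Oct4 and 7 in each of the Sox2, Klf4 and OSK lines. Counts by role, here and in the paragraphs below, stand beside the shares of all genes tested that were higher. These were 20.1% with Oct4, 21.7% with Sox2, 17.6% with Klf4 and 19.7% with OSK. Low Oct4 counts in roles this small lie near that share, and the roles were not tested against each other. CCNB1, cyclin B1, the partner of CDK1, had 194, 180.1 and 167 in the GFP libraries, 158 and 219.8 with Oct4, 343 and 361 with Sox2, 677 and 794 with Klf4, and 638 and 597 with OSK. Its Oct4 values overlapped those of GFP, and its other 3 lines lay clear of both. Its log2 change was 0.05 (limma adjusted p = 0.804) with Oct4, 0.96 with Sox2, 2.02 (SE 0.13, limma adjusted p = 9.38e-09) with Klf4 and 1.77 with OSK. AURKA, the kinase of the spindle poles, had 50.6, 58.7 and 44.7 in the GFP libraries, 119.6 and 117 with Oct4, 149 and 177 with Sox2, 333 and 415 with Klf4, and 353 and 304 with OSK. Here the Oct4 libraries too lay above all GFP libraries, at a log2 change of 1.20 (SE 0.16, limma adjusted p = 2.04e-05). The changes of AURKA in the other lines were 1.65 with Sox2, 2.84 with Klf4 and 2.66 with OSK. For CDK1, the kinase itself, the log2 change was 0.32 (limma adjusted p = 0.195) with Oct4, 1.94 with Sox2, 3.00 (SE 0.19, limma adjusted p = 6.04e-09) with Klf4 and 2.71 with OSK. FOXM1, the transcription factor of many of these genes, was at 0.40 with Oct4, 1.67 with Sox2, 2.87 (SE 0.15, limma adjusted p = 1.13e-09) with Klf4 and 2.86 with OSK. PLK1, a kinase that acts from entry to cytokinesis, rose by 1.12 with Sox2, 2.58 with Klf4 and 2.49 with OSK. CDC25C, a phosphatase that activates CDK1, was the exception, with 33.8, 16.2 and 13.6 in the GFP libraries, 20.9 and 6.87 with Oct4, 21.3 and 17.98 with Sox2, 39.3 and 33.1 with Klf4, and 48.8 and 42.9 with OSK. The GFP libraries of this gene spread widely and overlapped the lower Klf4 values, and no line passed the test. Its change was 0.85 (SE 0.46, limma adjusted p = 0.175) with Klf4 and 1.18 (SE 0.46, limma adjusted p = 0.051) with OSK. GFP replicate 1 held the highest of its GFP values, and without that library both passed, at 1.23 (limma adjusted p = 0.037) and 1.56 (limma adjusted p = 0.0077).

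By limma none of the 6 checkpoint genes passed with Oct4, where their median log2 change was -0.08; at an unadjusted p under 0.05 the count was 0 as well, as it was with edgeR and DESeq2. With Sox2 5 rose, and with Klf4 and OSK all 6 did, at medians of 2.01 and 2.04. BUB3, which brings checkpoint kinases to the kinetochore, moved least of the 40 genes, with 1689, 1719 and 1676 in the GFP libraries, 1667 and 1537 with Oct4, 1749 and 1657 with Sox2, 1848 and 2115 with Klf4, and 2327 and 2438 with OSK. The Sox2 and Oct4 values of BUB3 were at or below the range of GFP apart from 1 Sox2 library, and the OSK values were above all others. The change was 0.49 (SE 0.07, limma adjusted p = 4.46e-05) with OSK and 0.22 (SE 0.07, limma adjusted p = 0.0257) with Klf4, and the Klf4 call was lost without Klf4 replicate 2 (limma adjusted p = 0.32) and without GFP replicate 3 (0.0642). TTK, the kinase Mps1 that starts the checkpoint signal, had 19.9, 44.5 and 33.05 in the GFP libraries, 33.7 and 35.5 with Oct4, 86.4 and 87.3 with Sox2, 217 and 251 with Klf4, and 217 and 211 with OSK. Its Klf4 and OSK libraries lay far above GFP and Oct4, which overlapped. Its change was 0.16 (limma adjusted p = 0.671) with Oct4, 1.46 with Sox2, 2.88 (SE 0.26, limma adjusted p = 3.39e-07) with Klf4 and 2.75 with OSK. BUB1, BUB1B and MAD2L1, further parts of the checkpoint, rose with Klf4 by 2.16, 1.86 and 1.59 on the log2 scale. CDC20, the target that the checkpoint holds back, rose by 0.90 with Sox2, 2.32 with Klf4 and 1.95 with OSK.

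All 8 centromere and kinetochore genes rose with Klf4 and with OSK, 7 rose with Sox2 and 1, CENPE, with Oct4. CENPF, a large protein of the outer kinetochore, had 314, 319.7 and 299 in the GFP libraries, 276 and 362 with Oct4, 939 and 893 with Sox2, 1379.9 and 2022 with Klf4, and 1513 and 1476 with OSK. GFP and Oct4 overlapped, and the other lines did not overlap them. The log2 change of CENPF was 0.02 (limma adjusted p = 0.91) with Oct4, 1.56 with Sox2, 2.42 (SE 0.13, limma adjusted p = 1.69e-09) with Klf4 and 2.26 with OSK. NDC80, the microtubule-binding subunit of its complex, had 20.9, 29.3 and 22.4 in the GFP libraries, 49.9 and 27.5 with Oct4, 141 and 128 with Sox2, 211 and 235 with Klf4, and 208 and 217 with OSK. Its lowest Sox2 library was above every GFP and Oct4 library. The change was 0.61 (limma adjusted p = 0.0547) with Oct4, 2.45 (SE 0.24, limma adjusted p = 4.81e-07) with Sox2, 3.17 (SE 0.24, limma adjusted p = 5.01e-08) with Klf4 and 3.10 with OSK, and its Sox2 change was the largest among the 40. Without Oct4 replicate 2 its Oct4 change was 1.03 (limma adjusted p = 0.00512), and without GFP replicate 2 it was 0.75 (0.028). NUF2, SPC24 and SPC25, the partners of NDC80, rose with Sox2 by 2.04, 1.88 and 1.93 and with Klf4 by 2.96, 2.37 and 1.98. CENPA, the histone variant that marks the centromere, had 26.8, 18.2 and 6.80 in the GFP libraries, 15.1 and 14.9 with Oct4, 22.4 and 19.7 with Sox2, 68.2 and 126 with Klf4, and 103 and 79.2 with OSK. Sox2 values of CENPA lay within the range of GFP, with a change of 0.45 (SE 0.44, limma adjusted p = 0.453), and the Klf4 and OSK values were clear of them. It rose by 2.54 (SE 0.44, limma adjusted p = 0.000327) with Klf4 and 2.50 with OSK. CENPE, the kinetochore motor that moves chromosomes to the spindle equator, had the largest Oct4 change of the 40, with 69.5, 65.8 and 57.4 in the GFP libraries, 174 and 182 with Oct4, 292 and 245 with Sox2, 317 and 417 with Klf4, and 453 and 425 with OSK. Both Oct4 libraries were above all GFP libraries. The changes of CENPE were 1.46 (SE 0.14, limma adjusted p = 7.67e-07) with Oct4, 2.05 with Sox2, 2.49 with Klf4 and 2.76 with OSK.

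In the chromosomal passenger complex, which corrects wrong attachments at centromeres, none of 3 genes passed with Oct4 by limma, edgeR or DESeq2 (1, BIRC5, at an unadjusted p under 0.05), 2 rose with Sox2 and all 3 rose with Klf4 and with OSK. BIRC5, survivin, had 66.5, 99.1 and 62.2 in the GFP libraries, 85.9 and 125 with Oct4, 322 and 282 with Sox2, 574 and 658 with Klf4, and 625 and 558 with OSK. Its Klf4 and OSK values overlapped each other and were above all Sox2 values. On the log2 scale BIRC5 was at 0.47 (limma adjusted p = 0.0619) with Oct4, 2.00 with Sox2, 3.03 (SE 0.19, limma adjusted p = 6.29e-09) with Klf4 and 2.97 with OSK. AURKB, the kinase of the complex, had 81.4, 58.7 and 29.2 in the GFP libraries, 55.7 and 48.1 with Oct4, 92 and 80.5 with Sox2, 201 and 199.96 with Klf4, and 170.2 and 192 with OSK. GFP replicate 1 was the highest of its group and overlapped the Sox2 values. The log2 change of AURKB was -0.0047 (limma adjusted p = 0.993) with Oct4, 0.72 (SE 0.30, limma adjusted p = 0.0656) with Sox2, 1.93 (SE 0.30, limma adjusted p = 0.0001) with Klf4 and 1.78 with OSK. Without GFP replicate 1 the Sox2 change was 1.04 (limma adjusted p = 0.00289). CDCA8, borealin, rose by 1.16 with Sox2 and 2.44 with Klf4.

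All 8 kinesins rose with Klf4 and with OSK, 7 rose with Sox2 and 1, KIF23, with Oct4. KIF23, the motor of the central spindle in cytokinesis, had 79.4, 108 and 104 in the GFP libraries, 168 and 135 with Oct4, 283 and 321 with Sox2, 711 and 786 with Klf4, and 629.8 and 598 with OSK. No line overlapped GFP. Its log2 change was 0.64 (SE 0.14, limma adjusted p = 0.00203) with Oct4, 1.63 with Sox2, 2.94 (SE 0.14, limma adjusted p = 3.60e-10) with Klf4 and 2.66 with OSK. KIF4A, a motor that binds chromosomes and shortens the central spindle, had 27.8, 49.6 and 40.8 in the GFP libraries, 34.8 and 42.4 with Oct4, 154 and 141 with Sox2, 317 and 443 with Klf4, and 366 and 366 with OSK. Oct4 values of KIF4A lay within the range of GFP. The changes were 0.0023 (limma adjusted p = 0.996) with Oct4, 1.91 with Sox2, 3.26 (SE 0.22, limma adjusted p = 1.44e-08) with Klf4 and 3.22 with OSK. KIF18A, which limits the length of kinetochore microtubules, moved least of the motors, with 83.4, 64.8 and 84.6 in the GFP libraries, 90.6 and 111 with Oct4, 75.2 and 78.8 with Sox2, 128 and 174 with Klf4, and 127 and 123 with OSK. Sox2 values of KIF18A lay at those of GFP, and all Klf4 and OSK values were higher. Its change was 0.38 (limma adjusted p = 0.136) with Oct4, -0.0014 (SE 0.19, limma adjusted p = 0.997) with Sox2, 0.95 (SE 0.19, limma adjusted p = 0.00102) with Klf4 and 0.69 with OSK. Its OSK call was lost without OSK replicate 1 (limma adjusted p = 0.059), and the Oct4 call of KIF23 without Oct4 replicate 1 (0.0504). KIF20A, a motor of cytokinesis, rose by 0.65 with Sox2 and by 2.63 with Klf4. KIF11, which pushes the spindle poles apart, rose by 1.45 and 2.22, and KIF2C, which takes apart microtubule ends at centromeres, by 1.76 and 2.60.

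Of the 5 genes of spindle assembly and cytokinesis, 1, ANLN, rose with Oct4, 3 with Sox2 and 4 each with Klf4 and OSK. ECT2, the exchange factor that starts the contractile ring, had 375, 263 and 328 in the GFP libraries, 339 and 280.4 with Oct4, 707 and 672 with Sox2, 1056 and 1215 with Klf4, and 1449 and 1573 with OSK. GFP and Oct4 overlapped, and OSK was above all other lines. The log2 change of ECT2 was -0.05 (limma adjusted p = 0.808) with Oct4, 1.11 with Sox2, 1.83 (SE 0.13, limma adjusted p = 2.08e-08) with Klf4 and 2.24 (SE 0.13, limma adjusted p = 1.37e-09) with OSK. ANLN, anillin, a scaffold of the ring, had 151, 152 and 187 in the GFP libraries, 308 and 355 with Oct4, 679.9 and 634 with Sox2, 936 and 1341 with Klf4, and 1042 and 1008 with OSK. Every factor line lay above GFP, Oct4 included. Its change was 1.02 (SE 0.14, limma adjusted p = 1.86e-05) with Oct4, 2.01 with Sox2, 2.78 (SE 0.14, limma adjusted p = 3.94e-10) with Klf4 and 2.65 with OSK. TPX2, which activates AURKA on the spindle, rose by 1.53 with Sox2, 2.76 with Klf4 and 2.39 with OSK. NUSAP1, which bundles spindle microtubules, was listed with 17.9, 3.03 and 0.970 in the GFP libraries, 4.64 and 6.87 with Oct4, 6.73 and 3.42 with Sox2, 12.7 and 8 with Klf4, and 18.4 and 11 with OSK. Values this low scatter across all lines, and the Klf4 change was 1.07 (SE 0.80, limma adjusted p = 0.344). Without GFP replicate 1, its highest GFP library, that change was 1.98 (limma adjusted p = 0.0217). In that run all 40 genes, NUSAP1 included, were called higher with OSK as well. PRC1, which bundles the central spindle, was low as well, with 11.9, 2.02 and 3.89 in the GFP libraries, 8.13 and 6.87 with Oct4, 15.7 and 11.1 with Sox2, 16.2 and 29.7 with Klf4, and 29.3 and 29.7 with OSK. Its log2 change was 0.56 (limma adjusted p = 0.49) with Oct4, 1.31 (limma adjusted p = 0.0849) with Sox2, 2.00 (SE 0.58, limma adjusted p = 0.0142) with Klf4 and 2.40 with OSK, and the Klf4 call was lost without Klf4 replicate 2 (limma adjusted p = 0.153) and without GFP replicate 2 (0.0509). Without GFP replicate 1 the Sox2 change was 1.89 (limma adjusted p = 0.00497). In GENCODE release 29, 58.4% of the exon bases of PRC1 and 62.2% of those of NUSAP1 lie in exons of other genes as well, among them AC068831.7 and PRC1-AS1 for the first and AC087721.2 for the second. AC068831.7 had 3.97, 17.2 and 15.55 in the GFP libraries, 16.3 and 16.0 with Oct4 and 26.9 and 33.4 with Sox2. It had 49.7 and 54.85 with Klf4, and 78.05 and 68.2 with OSK. PRC1-AS1 lay at 3.43 to 22.85, and AC087721.2 at 0 apart from 3.37 in Sox2 replicate 1. How the authors' counting treated shared bases is not given in the sources used here, so the values of both genes are uncertain.

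Compared per kilobase of exon, BUB3 had the highest GFP level of the 40, at 204 normalised counts per kilobase, followed by CCNB1 (70.5), ECT2 (58.6) and TPX2 (46.2). With Klf4 the order was TOP2A (330.1), TPX2 (311), CCNB1 (287.5) and BUB3 (239). BUB3 led again with OSK (287), before ECT2 (275) and TOP2A (267). These levels were group means with no test between genes. The 40 genes lie on 17 chromosomes, with 6 on chromosome 1 and 5 on chromosome 15.

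The 9 genes higher with Oct4 than with GFP, a count near the background of 20.1% of all genes tested, were CENPE, AURKA, CCNA2 (cyclin A2), ANLN, CCNB2 (cyclin B2), KIF23, FOXM1, MKI67 and TOP2A. CCNA2 rose by 1.11 (SE 0.16, limma adjusted p = 3.91e-05) with Oct4 and by 0.90 with Sox2. CCNB2 rose by 0.85 (SE 0.22, limma adjusted p = 0.00684), with no call without Oct4 replicate 2 (limma adjusted p = 0.116). TOP2A was at 0.28 (SE 0.09, limma adjusted p = 0.0173) and FOXM1 at 0.40 (SE 0.15, limma adjusted p = 0.0488). The calls of TOP2A, MKI67 and FOXM1 were lost with DESeq2 on recovered reads (adjusted p = 0.0836, 0.0804 and 0.133) and without Oct4 replicate 2 (limma adjusted p = 0.16, 0.275 and 0.303). Leaving out GFP replicate 1 also left MKI67 and FOXM1 uncalled, at a limma adjusted p of 0.108 and 0.117. In that run 10 of the 40 were called with Oct4, so other genes gained a call. Set directly against Oct4, 28 of the 40 genes were higher with Sox2 (15.4% of all genes tested), 38 with Klf4 (20% of all genes) and 38 with OSK (18.4%), and none was lower. AURKA, CCNA2 and CENPE had Sox2 minus Oct4 differences of 0.46 (SE 0.17, limma adjusted p = 0.0559), -0.21 (SE 0.17, limma adjusted p = 0.404) and 0.58 (SE 0.16, limma adjusted p = 0.00898).

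Klf4 stood above Sox2 for 34 of the 40 genes (20.7% of all genes tested were higher) and OSK above Sox2 for 33 (20%), with medians of 0.99 and 1.00 on the log2 scale and none lower. CENPA differed most, by 2.09 (SE 0.49, limma adjusted p = 0.00249) with Klf4 and 2.05 (SE 0.49, limma adjusted p = 0.00297) with OSK. KIF20A was next with Klf4, at 1.98 (SE 0.19, limma adjusted p = 3.99e-07). Genes of the kinetochore were also at the other end. CENPK, which links the centromere to the outer kinetochore, differed between Klf4 and Sox2 by -0.23 (SE 0.34, limma adjusted p = 0.646), and SPC25 by 0.05 (SE 0.33, limma adjusted p = 0.927). In OSK against Sox2 these differences were -0.09 (SE 0.34, limma adjusted p = 0.866) and -0.17 (SE 0.33, limma adjusted p = 0.726), and NDC80 was at 0.65 (SE 0.26, limma adjusted p = 0.057). The number higher in OSK than in Sox2 was 25 without OSK replicate 1, 25 without OSK replicate 2 and 27 without GFP replicate 1 and OSK replicate 1 together.

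OSK and Klf4 differed for 3 of the 40 genes, where 21.5% of all genes tested differed. TOP2A was lower in OSK, at a log2 difference of -0.30 (SE 0.09, limma adjusted p = 0.0316), and BUB3 and ECT2 were higher, by 0.27 (SE 0.08, limma adjusted p = 0.0224) and 0.41 (SE 0.14, limma adjusted p = 0.045). Without OSK replicate 1 limma called 0 of the 40, and 4 had an unadjusted p under 0.05; it called 0 without OSK replicate 2 as well (2 at an unadjusted p under 0.05) and 1 without Klf4 replicate 2. With all libraries edgeR called 4 and DESeq2 3. The median difference of the 40 was -0.11. The 95% interval of the difference lay within a log2 change of 1 either way for 33 genes and within 1.5-fold for 15, so a small difference was not detectable for most. NUSAP1, PRC1 and CDC25C had the widest intervals.

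**Figure D4:**
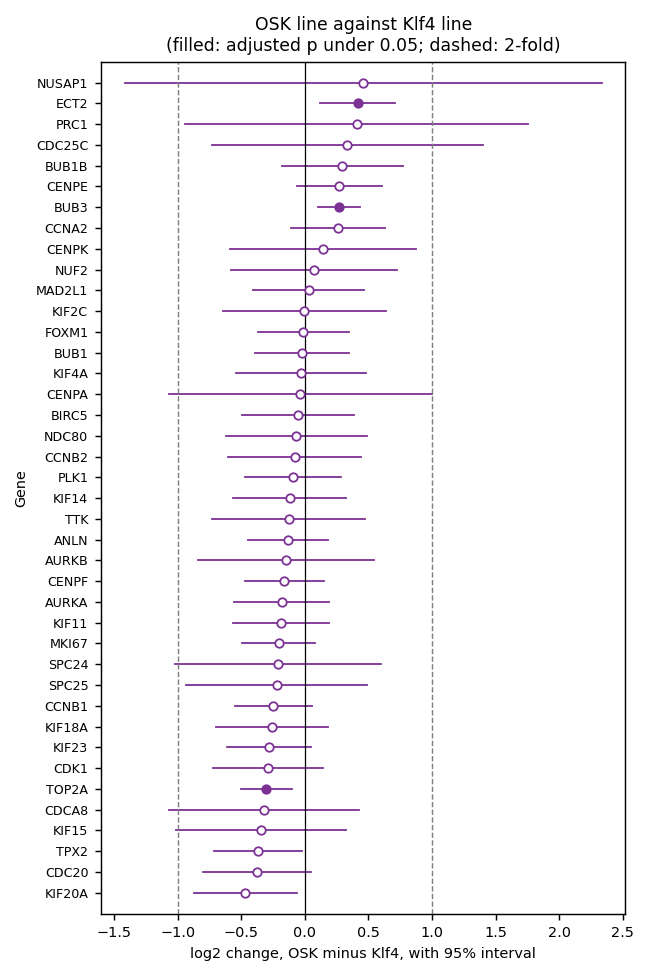
Log2 difference of OSK from Klf4 for each of the 40 genes (horizontal axis, log2(value + 1) scale), ordered by size; points are fitted differences, bars are 95% intervals, filled points have an adjusted p under 0.05 and dashed lines mark a 2-fold difference. ECT2 and BUB3 are higher and TOP2A is lower in OSK, and 33 intervals lie between the dashed lines.

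OSK changes were also set against the sum of the 3 single-factor changes on the log2 scale. For 30 of the 40 genes OSK fell short of the sum (20.3% of all genes tested were lower) and none exceeded it, at a median difference of -1.85. MKI67 was at -2.61 (SE 0.25, limma adjusted p = 6.75e-07) and ANLN at -3.16 (SE 0.27, limma adjusted p = 2.39e-07). Both genes were also higher than GFP with Sox2 alone and with Klf4 alone. The doses were unlike: POU5F1 was lower in OSK than in the Oct4 line (log2 difference -1.80), and SOX2 lower than in the Sox2 line (-0.72). KLF4 was level with the Klf4 line (0.07). The part of these doses in the shortfall was not tested.

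The Klf4 libraries differed from each other in these genes. The mean chi-square of the 40 between replicates, which is near 1 where only counting error separates 2 libraries, was 14.1 for the Klf4 pair and 1.62 to 4.64 for the other pairs. Over all features counted it was 5.57 for the Klf4 pair and 13.2 and 11.3 for the pairs with GFP replicate 1. The remaining pairs lay at 3.32 to 4.84, so every pair was above counting error. Klf4 replicate 2 was above replicate 1 for 35 of the 40 genes, where 48.3% of all genes tested were. OSK replicate 2 was above replicate 1 for 7 of the 40 (51.0% of all genes), and the other pairs were split more evenly, at 12 to 22. Without Klf4 replicate 2 the median Klf4 change was 2.27, and without replicate 1 it was 2.63. The median difference of OSK from Klf4 was 0.05 without Klf4 replicate 2 and -0.28 without replicate 1, so its sign rested on that library.

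Lists of other mitotic and cell cycle genes, 161 genes in 10 lists that exclude the 40, were counted in the same fit. They are to be read against the shares of all genes tested (17.6% higher and 16% lower with Klf4, 19.7% and 20% with OSK, 21.7% and 19.9% with Sox2). All 8 condensin subunits, which compact chromosomes, rose with Klf4 and with OSK, and 7 rose with Sox2. NCAPG, a subunit of condensin I, rose most, by 3.31 (SE 0.23, limma adjusted p = 2.47e-08) with Klf4; 33.1% of its exon bases lie in another gene as well. All 5 other mitotic kinesins rose in the Sox2, Klf4 and OSK lines, with KIFC1, which crosslinks spindle microtubules, at 2.80 (SE 0.19, limma adjusted p = 1.51e-08) with Klf4. Of 19 other genes that act at the kinetochore or centromere (the KNL1, Mis12, RZZ and Ska groups with SPDL1, MAD1L1, TRIP13, SGO1, SGO2, INCENP and HASPIN), 12 rose and 2 fell with Klf4, and 13 rose and 1 fell with OSK. KNL1, the platform of the checkpoint kinases, rose by 3.21 (SE 0.22, limma adjusted p = 2.21e-08) with Klf4, whereas SPDL1, which brings dynein to kinetochores, fell by 0.79 on the log2 scale with Sox2. Of 16 other genes of the inner centromere, 9 rose with Klf4 and 10 with OSK. CENPI rose most, by 2.43 (SE 0.25, limma adjusted p = 1.53e-06) with Klf4, and CENPT fell by 0.79 with Sox2. Beside these, the median log2 change with Klf4 was 0.77 for condensin, 1.72 for the kinesins, 0.89 for the list of KNL1 and its partners and 0.66 for the inner centromere, below the 2.46 of the 40 genes, which were chosen with results of these data known.

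The remaining 6 lists hold genes that act outside mitosis as well. Of 18 genes of the anaphase-promoting complex and its partners, 8 rose with Klf4, 7 with Sox2 and 7 with OSK, with a median log2 change of 0.19 with Klf4. UBE2C, its ubiquitin-conjugating partner, rose by 3.37 (SE 0.16, limma adjusted p = 3.93e-10), and ANAPC15 fell by 0.78 with OSK. Of 12 cohesin and separase genes 5 rose with Klf4, led by ESPL1, separase, at 1.99 (SE 0.23, limma adjusted p = 6.84e-06), and this gene fell by 0.65 with Oct4. Of 26 centrosome and spindle pole genes 12 rose with Klf4 and 12 with OSK, led by ASPM at 3.06 (SE 0.17, limma adjusted p = 9.51e-10) with OSK, and 3 fell with Sox2, among them NUMA1 by 0.84. Among 19 MuvB, RB and E2F regulators, 11 rose and 3 fell with Sox2, 6 rose and 2 fell with Klf4, and E2F1, an activator of replication genes, rose by 3.64 (SE 0.14, limma adjusted p = 4.93e-11) with Klf4. Of 10 D cyclins and CDK inhibitors 4 rose and 2 fell with Klf4, and 3 rose and 3 fell with OSK. CDKN2C, an inhibitor of CDK4 and CDK6, rose by 3.42 (SE 0.14, limma adjusted p = 7.48e-11) with Klf4, and CCND2, cyclin D2, fell by 1.88 with Sox2. The other D cyclins went the other way with Sox2. CCND1 rose by 2.05 (SE 0.12, limma adjusted p = 9.20e-10) and CCND3 by 1.07 (SE 0.10, limma adjusted p = 3.88e-07). Of 28 DNA replication genes, 22 rose with Klf4, 23 with OSK, 16 with Sox2 and 4 with Oct4, while 7 fell with Oct4. Of all genes tested 17.6% were higher with Klf4, 19.7% with OSK, 21.7% with Sox2 and 20.1% with Oct4, and 17.2% were lower with Oct4, so the Oct4 counts of this list lie near the background. TK1, thymidine kinase, led them at 3.53 (SE 0.17, limma adjusted p = 2.35e-10) with OSK.

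**Figure D5:**
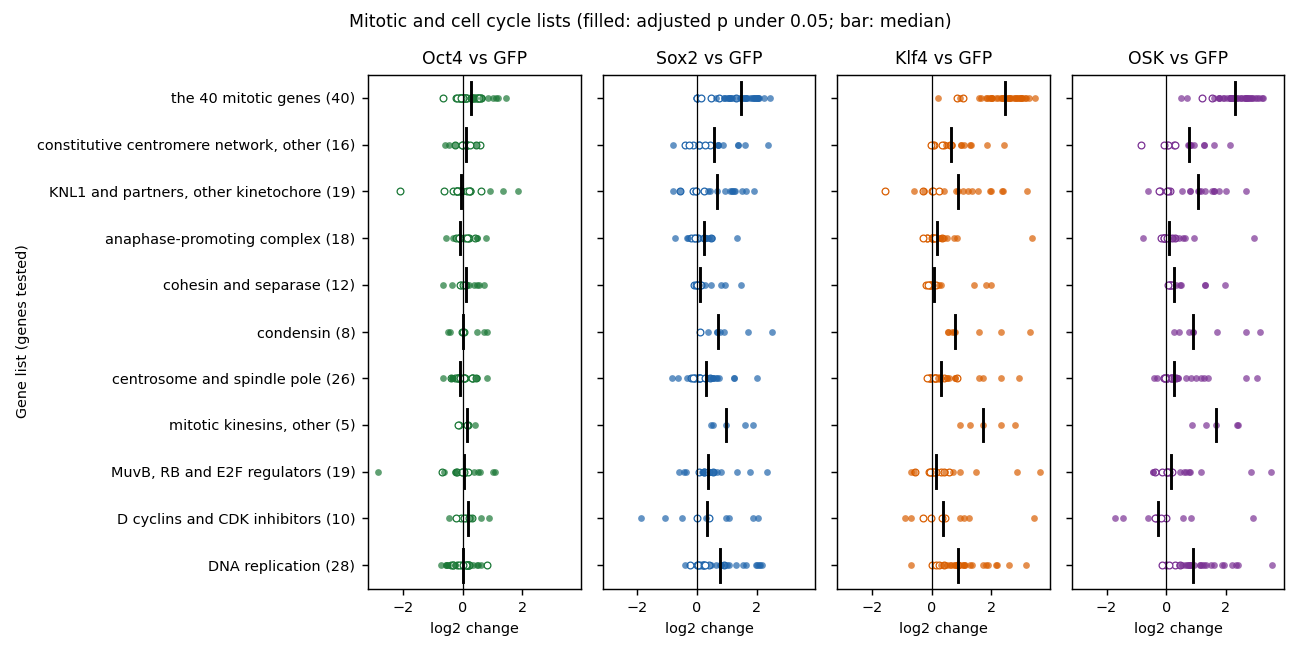
Log2 change from GFP (horizontal axis, log2(value + 1) scale) of every gene of the 40 and of the 10 related lists in each factor line; circles are genes, filled where the adjusted p is under 0.05, and vertical bars are list medians. The median of the 40 is 2.46 with Klf4 and 2.29 with OSK, and with Oct4 the list medians lie near 0.

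Markers of other cell types were read beside these changes. Among the RPE markers, 12 of 15 passed the filter; with Klf4 2 rose and 4 fell (16% of all genes tested fell), with OSK 1 rose and 10 fell (20%), with Sox2 6 fell (19.9%) and with Oct4 1 rose and 9 fell (17.2%). Between OSK and Klf4, where 3 of the 40 mitotic genes differed, 11 RPE markers were lower with OSK (11.9% of all genes tested). Of the 10 pluripotent markers, 7 passed the filter and none rose by limma in a comparison with GFP, where 5 fell with Sox2 and 3 with OSK. Their summed level was 31.8 to 48.8 RPM with GFP, 29.2 to 32.1 with Oct4, 17.7 to 24.4 with Sox2, 28.9 to 30.3 with Klf4 and 22 to 29.2 with OSK. The GFP group of these tests includes replicate 1, which had reads in 42956 features. Marker calls were not rerun without that library, so how far the falls rest on it was not tested. Photoreceptor markers summed to 10.7 to 20.4 and endothelial markers to 31.6 to 83.7 RPM, and blood markers to 4 to 39 reads per library. The part of these markers in the mitotic changes was not tested.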

How the data were processed

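Polyadenylated RNA was sequenced from 11 libraries, and the groups came from the sample titles. Reads were handled with STAR 2.7.1a and featureCounts 1.6.2, per the submitters' processing notes, which name human (GRCh38, hg38) and mouse (GRCm38, mm10) builds with no role; the annotation, the use of strand and the scaling step are not given in the sources used here. From its values, the deposited table holds a signal: gene counts that the authors divided by 1 factor per library and rounded to 2 decimals, called normalised counts here. Dividing by that step gave whole reads for at least 99.8% of values in every library (tolerance 0.006).

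The 18828 genes that reached 10 in 2 or more libraries were tested with limma 3.58.1 (R 4.3.3; eBayes with trend) on log2(value + 1), a scale that understates the change of low genes, in 1 fit with a mean per group over all 11 libraries (6 residual and 9.21 prior degrees of freedom). Adjustment was by Benjamini-Hochberg over these genes. A 2-library group is assumed to vary like the others. Alternatives used edgeR 4.0.16 and DESeq2 1.42.0 on recovered reads, other pseudocounts, filters and scalings, and left libraries out. The fit was tested on simulated data. Values by library are given for MKI67, for the gene of each role with the highest mean, the largest and the smallest mean absolute change from GFP, and for CENPE and PRC1, chosen after their values were seen; from each related list the largest rise and the largest fall may be named. CCND1 and CCND3 were named beside these after their values were seen. The 40 genes, the lists and the promoter letters were chosen with earlier results of these data known.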

Additional observations from a re-analysis of the deposited data

How the results depend on the processing

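None of the 40 genes reversed a call in any comparison under any alternative run, and none was called lower than GFP. The number called against GFP ran from 36 to 39 with Klf4 under other tools, scalings, pseudocounts, filters or the replicate block (36 to 40 with 1 library left out), from 37 to 39 with OSK (37 to 40), from 33 to 35 with Sox2 (32 to 35) and from 6 to 10 with Oct4 (7 to 12). Klf4 against Sox2 gave 28 to 34 (26 to 34) and OSK against Sox2 27 to 36 (25 to 35). Among the 11 comparisons and the alternatives run, only the count of 3 for OSK against Klf4 moved by more than 1.5 times: it was 0 with no filter on low values, 5 when only the groups compared entered the fit, 1 with the replicate block, 1 without GFP replicate 1 and OSK replicate 1 together, and 0 to 4 with 1 library left out. With no filter the median of all genes shifted by -0.33 against GFP with each of Oct4, Sox2 and Klf4 and by -0.24 with OSK. Same-number deviations from the group means correlated at -0.07 to 0.44, over 0.1 in 2 of 20 pairs. Both of these were GFP with OSK, at 0.44 for replicate 1 and 0.31 for replicate 2, and the cause was not tested. Between groups of 2 libraries the values for replicates 1 and 2 are equal by construction, so the 20 are not separate checks. With the replicate block 8, 33, 37 and 38 genes were called for Oct4, Sox2, Klf4 and OSK against GFP. Taking any listed start, a setting added after seeing the data, put TTTGAA in the windows of 25 genes in place of 24. The share of tested genes with it was then 13.8% in place of 9.77%. Only 4 of the 34 genes have several starts, so their count could move little. Genes with few reads, such as PRC1, NUSAP1, CDC25C and CENPA, have wide intervals, so that missing calls there show no lack of change.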
